A study of Mus musculus with 4 samples.

Results

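Lysosome acidification and autophagy genes were followed through the cells of mouse tumors grown in wild-type (WT) and Lrrc25-/- hosts. The members were 57 of the 32285 genes in the count matrices. They comprised 23 genes whose symbol begins with Atp6v0 or Atp6v1 (the V-ATPase genes), 18 genes whose symbol begins with Atg and a digit, and 16 further autophagy and lysosome genes chosen by name. The rule uses gene names only, and no member was used to sort cells into types.

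The V-ATPase is the proton pump that acidifies lysosomes. Its cytosolic V1 sector splits ATP, and its membrane V0 sector carries protons through a rotating ring. Autophagy wraps cytosol or organelles in a double membrane and delivers them to the acid lysosome, a route that phagocytes also use on engulfed material, and the related factors Tfeb, Tfe3 and Mitf switch on many genes of both systems. In macrophages these compartments digest dead cells and feed antigen processing.

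The study asks how tumors differ in hosts that lack Lrrc25, a myeloid membrane protein with leucine-rich repeats. Single-cell RNA was captured with a droplet 3' kit, which counts molecules by unique molecular identifiers (UMIs), from B16F10 melanoma on day 14 or MC38 colon carcinoma on day 26. There was 1 library for each host genotype and tumor model, namely WT B16F10, Lrrc25-/- B16F10, WT MC38 and Lrrc25-/- MC38. Each library pooled tumors of 3 mice and mixed bead-isolated CD45+ cells with whole suspension at 5:1, and no mouse received a drug. Values for libraries are given below in that order.

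The libraries held 10490 to 18545 barcodes and 105338548 to 138841749 UMIs, and filtering left 9319, 11543, 15792 and 15309 cells. Between 96 and 247 barcodes were shared by any pair of libraries. Cells were put into types by lists of 8 marker genes, and 11%, 16.4%, 32.0% and 24.9% of cells passed no gate. Macrophages numbered 3591, 4057, 8748 and 8629 and were led by C1q genes and Ms4a7. Their Lrrc25 level was 160, 4.85, 92.8 and 2.08 CPM, which is UMIs per 1000000 UMIs of the class, so the genotype labels held. The other gates held 579 to 1528 T cells, 291 to 3368 tumor cells, 177 to 409 monocytes, 117 to 303 conventional dendritic cells and 65 to 386 neutrophils per library. In the WT B16F10 library the T-cell gate also carried immunoglobulin transcripts (Ighg2b, Igha, Jchain) and the monocyte gate mast-cell transcripts (Mcpt4, Tpsb2) among its leading genes.

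V-ATPase transcripts were more abundant in macrophages and neutrophils than in dendritic cells, T cells and fibroblasts of the same library. Summed over its 23 genes, the V-ATPase level in macrophages was 5807, 5555, 3068 and 3390 CPM. In T cells it was 1938, 1635, 1140 and 1220 CPM. Conventional dendritic cells lay between these at 2633, 2613, 1898 and 2089 CPM, and fibroblasts near the T cells at 1229 to 1626 CPM. Neutrophils reached 5414, 4958, 3887 and 3534 CPM, which is close to macrophages. Tumor cells differed by model, with 4646 and 4738 CPM in B16F10 melanoma cells and 1256 and 1445 CPM in MC38 cells.

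In every class the V-ATPase sum was higher in the B16F10 libraries than in the MC38 libraries. The models also differ in collection day and in macrophage depth (median 8290 and 9019 UMIs per macrophage in B16F10, 4486.5 and 6055 in MC38), and the median mitochondrial share of macrophages was 0.266%, 0.517%, 2.61% and 2.43%. The part of these in the difference was not tested. The 34 autophagy genes varied less. Their sum was 3182, 3187, 2536 and 2678 CPM in macrophages, 1690, 1608, 1379 and 1551 CPM in T cells, and highest in neutrophils at 3563 to 3913 CPM.

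**Figure D1:**
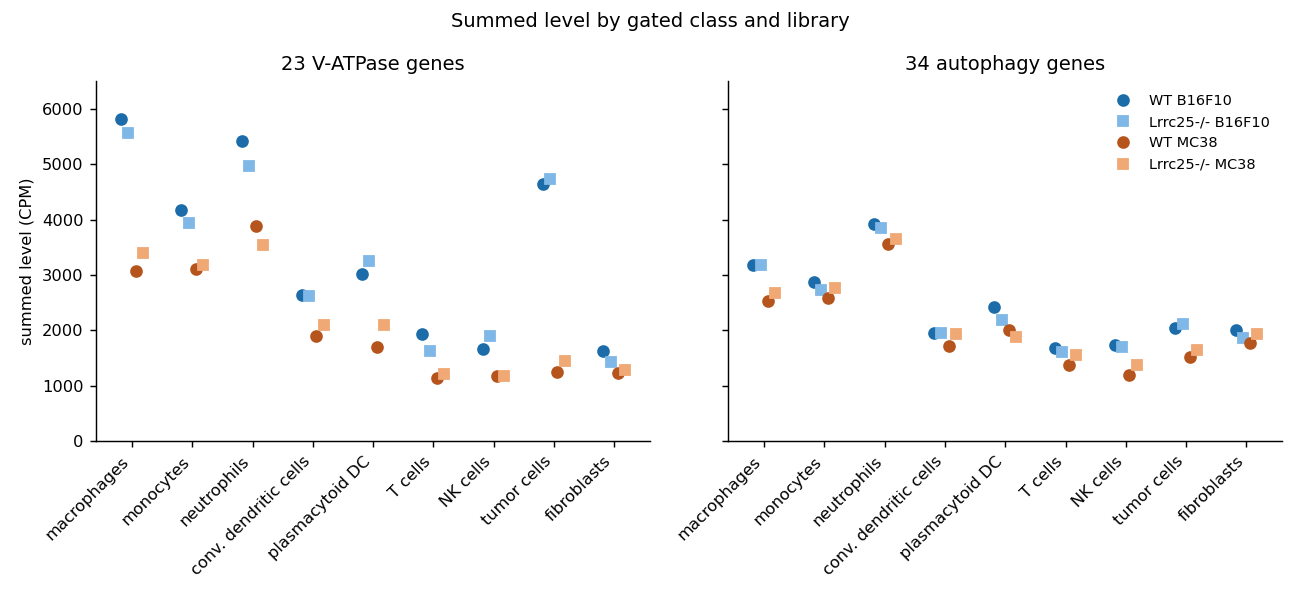
Summed CPM of the 23 V-ATPase genes and of the 34 autophagy genes in each gated class, with 1 point per library. V-ATPase sums of macrophages lie between 3068 and 5807 CPM and those of T cells between 1140 and 1938 CPM, and in each class the V-ATPase sums of both B16F10 libraries lie above those of both MC38 libraries.

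Among the V-ATPase members, 1 paralog of most subunits gave most of the macrophage UMIs. A 3' UMI tags a molecule once, so levels of different genes are compared here as molecules, without division by length. Among genes of the d subunit, which couples the ring to the central stalk, Atp6v0d1 measured 218, 229, 124 and 131 CPM in macrophages. Its paralog Atp6v0d2, best known from osteoclasts, measured 58.1, 78.3, 27.9 and 22.8 CPM. The d1 form was thus the more abundant in each library.

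The a-subunit genes form the proton half-channels. Of those that the name rule matches, Atp6v0a1 measured 75.6, 70.1, 42.1 and 38.4 CPM and Atp6v0a2 7.40, 11.3, 20.8 and 19.1 CPM. Atp6v0a4, a form known from kidney, stayed at or under 0.125 CPM. Tcirg1, a further a-subunit gene, is not matched by the rule and was listed with the V-ATPase partners. Its level was not set beside these, so the leading a subunit was not determined. The proteolipid ring gene Atp6v0c was the highest member, at 2239, 1986, 886 and 1128 CPM, and its companion Atp6v0b reached 517, 572, 292 and 354 CPM. In V1, the B subunit came from Atp6v1b2 (166, 162, 119 and 113 CPM), C from Atp6v1c1 (117, 140, 91.8 and 81.3 CPM), E from Atp6v1e1 (246, 253, 192 and 190 CPM) and G from Atp6v1g1 (646, 576, 251 and 286 CPM). The paralogs Atp6v1b1, Atp6v1c2, Atp6v1e2 and Atp6v1g3 stayed at or under 0.172 CPM in macrophages, and Atp6v1g2 at or under 1.65 CPM. Atp6v1fnb, named for lying beside Atp6v1f and not known as a pump subunit, stayed at or under 0.0393 CPM.

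Among the ubiquitin-like proteins that are joined to autophagosome lipid, Gabarap led in macrophages with 1148, 1099, 557 and 632 CPM. Map1lc3b (LC3B) followed with 313, 283, 188 and 242 CPM and Gabarapl2 with 135, 128, 77.9 and 88.9 CPM. Gabarapl1 measured 49.3, 56.6, 27.6 and 36.1 CPM and Map1lc3a 31.8, 27.1, 20.02 and 26.5 CPM. All of these were lower in both MC38 libraries than in both B16F10 libraries. The ATG4 proteases, which trim those proteins, went otherwise. Atg4a was higher in MC38 (6.14, 6.30, 29.7 and 34.4 CPM), as were Atg4c (5.80, 7.10, 11.6 and 12.7 CPM) and Atg4d (6.33, 7.30, 9.57 and 10.3 CPM), while Atg4b was nearly level (21.2, 20.5, 19.9 and 19.6 CPM). The 3 factors split too. Tfeb measured 13.01, 16.1, 9.64 and 12.2 CPM, Tfe3 16.6, 20.01, 31.1 and 28.1 CPM, and Mitf 34.6, 41.6, 87.5 and 61.1 CPM.

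**Figure D2:**
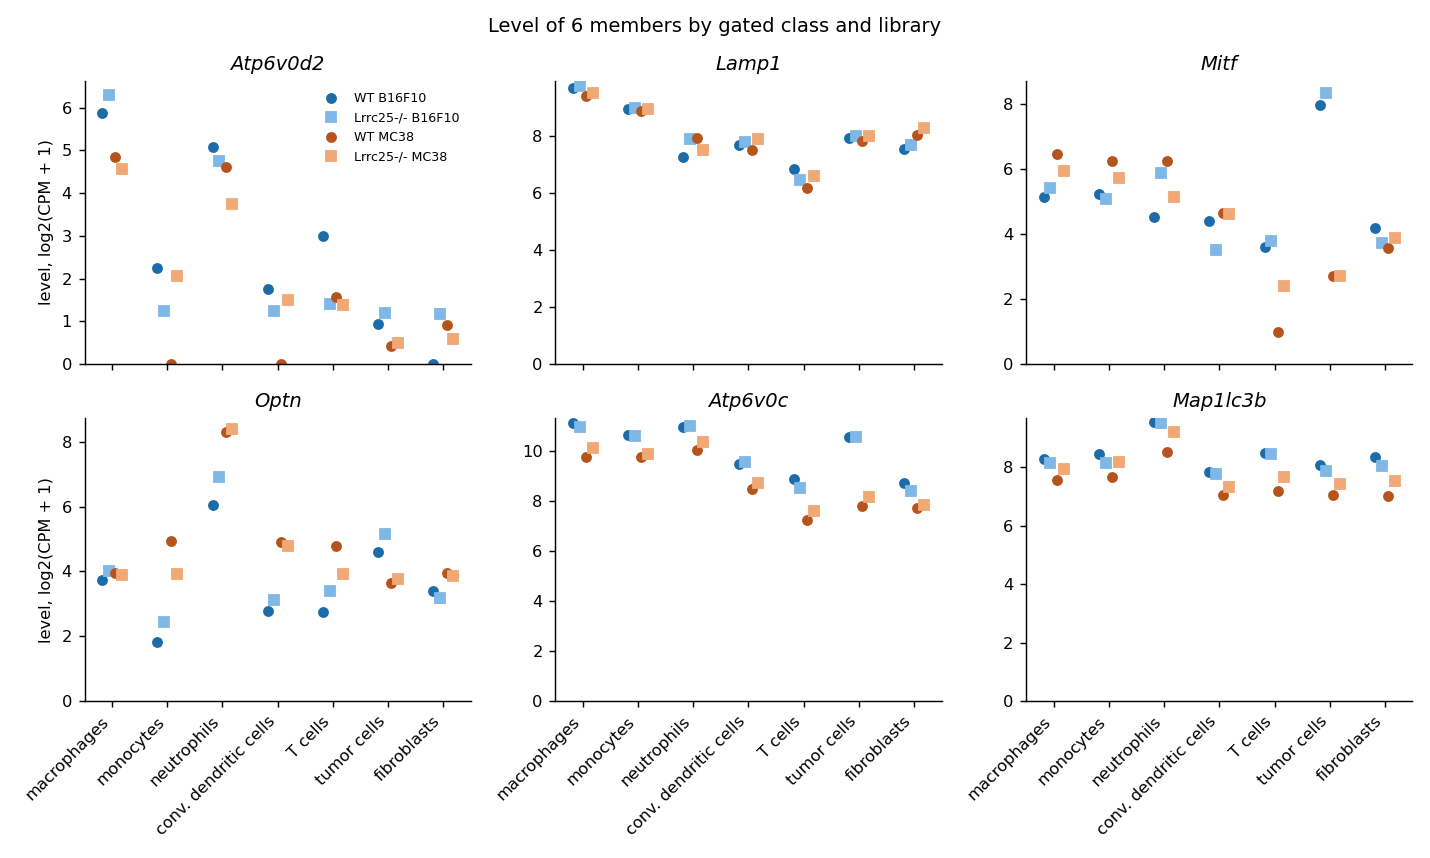
Level of members by gated class, on a log2(CPM + 1) scale. Atp6v0c is the highest member in macrophages.

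Macrophages were compared with each of 4 other classes, and 2 pairs of macrophage subsets with each other, over the 4 libraries. The test was edgeR's quasi-likelihood F-test on UMIs summed per library and class, with library as a block, and adjusted p is Benjamini-Hochberg over all genes tested, called under 0.05. The spread given is the SD over the 4 libraries of the log2 ratio of CPM after a pseudocount of 1. The pseudocount shrinks the ratios, and can shrink the SD, of genes with few UMIs in a class. Thus the mean ratio of Atg4c over T cells was 2.85 beside a fitted log2 fold of 4.65. For Atp6v0d2 over dendritic cells it was 4.29 beside 5.18. The libraries differ in genotype and model, so the p-values measure only the spread between these pools. Fold changes come after TMM scaling, which moved log2 values by 0.21 (neutrophils), 0.06 (dendritic cells), 0.25 (T cells), 0.29 (tumor cells), 0.16 (Arg1+ against Cxcl9+) and -0.22 (Mrc1+ against Arg1+) relative to plain CPM. In these 6 comparisons 0 called members had another sign on plain CPM.

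Against T cells, the pump and the lysosomal membrane were higher in macrophages across almost all measured subunits. Of 17 V-ATPase genes tested, 14 were higher and 0 lower, and 13 of them by at least 2-fold. Of all genes tested, 53.7% were called, 27.7% higher and 26.0% lower, with 19.0% at least 2-fold higher. The median log2 fold of the V-ATPase genes was 1.59, and of all genes 0.02. Of the 34 autophagy genes, 11 were higher and 4 lower, with a median of 0.28.

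Lamp1 (chromosome 8, 13159161 to 13175338, plus strand, GRCm38), a heavily glycosylated protein of the lysosomal membrane, measured 816, 854, 680 and 728 CPM in macrophages and 113, 87.3, 70.6 and 95.01 CPM in T cells. Its log2 fold was 3.34 (SD 0.22, n = 4, edgeR adjusted p = 0.000101), and the classes did not overlap. Atp6v0c (chromosome 17, 24163866 to 24169702, minus strand) measured 476, 368, 151 and 194 CPM in T cells, for a log2 fold of 2.69 (SD 0.15, n = 4, edgeR adjusted p = 0.000101). Atp6v1a, the catalytic subunit of V1, measured 254, 269, 269 and 220 CPM in macrophages and 43.8, 37.0, 64.4 and 52.3 CPM in T cells. Its log2 fold was 2.64 (SD 0.38, n = 4, edgeR adjusted p = 0.00014).

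These 3 genes were separated in every library, and further V0 and V1 subunits followed. Atp6v0a1 had a log2 fold of 2.92 (SD 0.60), Atp6v0b 2.15 (SD 0.26), Atp6v1c1 2.04 (SD 0.41), Atp6v1b2 2.03 (SD 0.44), Atp6v1g1 1.60 (SD 0.20), Atp6v1e1 1.58 (SD 0.28) and Atp6v0d1 1.51 (SD 0.17), and the smallest called was Atp6v1f at 0.74 (SD 0.05), with edgeR adjusted p from 0.000149 to 0.00136 over these 8. Atp6v0d2 stood at 7.02, 1.65, 1.97 and 1.58 CPM in T cells, for a log2 fold of 4.26 (SD 0.91, edgeR adjusted p = 0.000399). Its highest T-cell value was in the WT B16F10 library, where the summed macrophage markers in T cells were also highest (665, 284, 150 and 328 CPM, against 13327, 12591, 8581 and 10681 CPM in macrophages). The part of macrophage RNA in T-cell droplets was not tested.

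On the autophagy side, the highest fold was that of the protease Atg4c, at 4.65 (SD 0.40, edgeR adjusted p = 0.000626), from at most 1.30 CPM in T cells. Lamp2, a lysosomal membrane protein needed for fusion, had a log2 fold of 2.64 (SD 0.29), the phosphoinositide reader Wipi1 2.06 (SD 0.57), Gabarap 1.68 (SD 0.15), the lysosomal calcium channel gene Mcoln1 1.53 (SD 0.06), Tfe3 1.35 (SD 0.14) and Atg7, the E1-like enzyme of conjugation, 0.997 (SD 0.25), with edgeR adjusted p from 0.000114 to 0.00252. Mitf was called higher too (log2 fold 3.19, edgeR adjusted p = 0.00939), with an SD of 1.87. Its T-cell levels were 11.2, 12.9, 0.984 and 4.32 CPM, and the summed melanoma markers in the same cells were 375, 345, 2.95 and 1.73 CPM. The part of melanoma RNA in that spread was not tested.

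T cells had the higher level of 4 autophagy genes. Atg16l2, a paralog of the conjugation scaffold Atg16l1, measured 6.71, 5.43, 13.5 and 13.7 CPM in macrophages and 21.0, 25.7, 76.5 and 68.2 CPM in T cells, with a log2 fold of -1.94 (SD 0.39, n = 4, edgeR adjusted p = 0.000246). Within each library the T cells were the higher. Atg4d (-0.74), Atg16l1 (-0.69) and Atg2b (-0.57), a lipid transfer protein gene, were also lower in macrophages, with edgeR adjusted p of 0.00558, 0.00412 and 0.0246. The Atg2b call was lost without the Lrrc25-/- B16F10, WT MC38 or Lrrc25-/- MC38 library (-0.44 to -0.61).

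**Figure D3:**
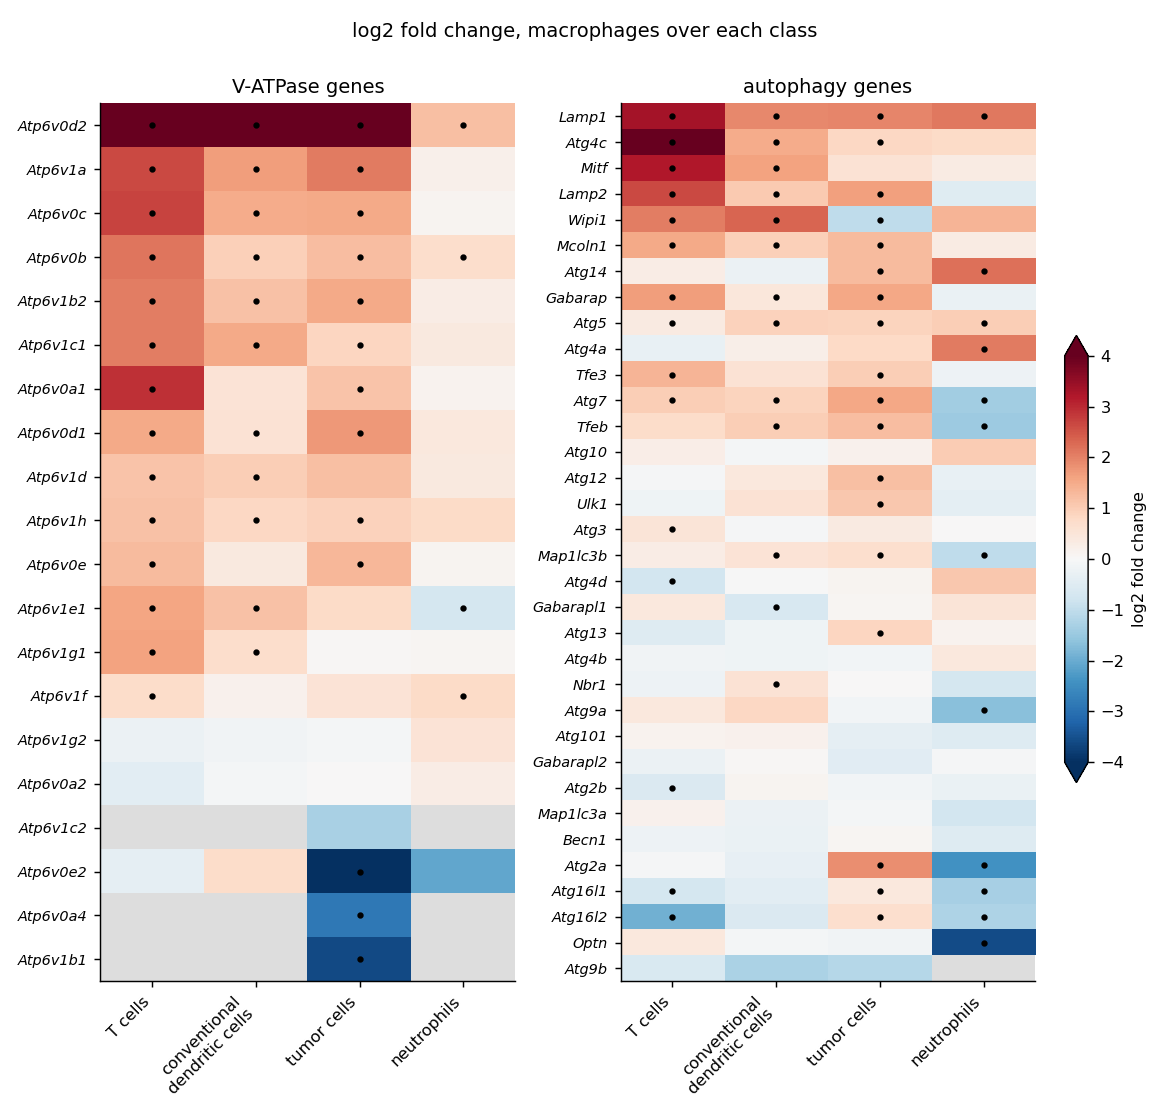
Log2 fold change of members in macrophages over T cells, conventional dendritic cells, tumor cells and neutrophils (colour, limited to 4 in either direction). A black dot marks an adjusted p under 0.05, and grey a gene not tested or with no UMI in the other class. V-ATPase genes are mostly higher in macrophages than in T cells, dendritic cells and tumor cells, and mixed against neutrophils.

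Conventional dendritic cells, which also take up and digest antigen, had a lower pump level than macrophages but differed less. The class joins type 1, type 2 and migratory dendritic cells. Their V-ATPase sums were 1804 to 2202, 1947 to 3023 and 1860 to 2633 CPM, each under macrophages of the same library. Of 17 V-ATPase genes 11 were higher in macrophages and 0 lower, and of 34 autophagy genes 12 were higher and 1 lower, where 32.5% of all genes were called, 20.3% higher and 12.2% lower. The median log2 fold was 0.81 for the V-ATPase genes, 0.20 for the autophagy genes and 0.20 for all genes. Atp6v0d2 had the highest fold, with 2.36, 1.34, 0 and 1.83 CPM in dendritic cells (2, 3, 0 and 2 UMIs) and a log2 fold of 5.18 (SD 0.90, n = 4, edgeR adjusted p = 5.35e-08). So few UMIs leave its dendritic level uncertain in all 4 libraries. Summed macrophage markers in the dendritic gate were 439, 330, 303 and 367 CPM.

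Lamp1 in dendritic cells was 202, 221, 182 and 236 CPM (log2 fold 1.93, SD 0.17, edgeR adjusted p = 4.4e-07), and Atp6v1a 70.8, 57.3, 104 and 108 CPM (log2 fold 1.68, SD 0.52, edgeR adjusted p = 3.45e-06). Both were lower than in macrophages in each library. Lamp1 differed by type, at 64.0 to 133 CPM in type 1, 113 to 168 CPM in type 2 and 296 to 408 CPM in migratory cells. Atp6v0c (1.496, SD 0.15), Atp6v1c1 (1.53, SD 0.41), Atp6v1e1 (1.18, SD 0.39) and Atp6v1b2 (1.16, SD 0.77) were higher as well, with edgeR adjusted p from 5.78e-06 to 0.000485. Smaller folds were called for Atp6v1d (0.97), Atp6v0b (0.95), Atp6v1h (0.81) and Atp6v1g1 (0.70), with edgeR adjusted p from 0.000149 to 0.00342, and the Atp6v1h call was lost without Lrrc25-/- B16F10 (0.58).

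Among the autophagy genes Wipi1 had the highest fold, with 1.18, 2.68, 1.16 and 1.83 CPM in dendritic cells (2.34, SD 0.81, edgeR adjusted p = 0.000912). Atg4c (1.47, SD 0.60), Lamp2 (1.03, SD 0.41), Mcoln1 (0.95, SD 0.60), Atg5 (0.92, SD 0.14) and Atg7 (0.88, SD 0.27) followed, with edgeR adjusted p from 0.000165 to 0.0294. Atg7 differed by type. Its mean over the libraries was 35.1 CPM in type 2 cells, near the 35.7 CPM of macrophages. In type 1 and migratory cells it was 9.09 and 8.0 CPM. The Atg4c call was lost without Lrrc25-/- B16F10 (1.13), and the Mcoln1 call without each library but Lrrc25-/- MC38 (0.73 to 1.01). Both Mitf, at 1.60 (SD 0.53, edgeR adjusted p = 3.7e-05), and Tfeb, at 0.99 (SD 0.54, edgeR adjusted p = 0.0153), were called higher. The Tfeb call was lost without the Lrrc25-/- B16F10 library (0.68) or the WT MC38 library (0.91). The exception was Gabarapl1, at 61.3, 89.5, 56.8 and 60.3 CPM in dendritic cells and lower in macrophages of every library (log2 fold -0.64, SD 0.29, edgeR adjusted p = 0.0053).

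Tumor cells, taken by melanoma markers in B16F10 and by epithelial and MC38 markers in MC38, were the class in which the members varied most between libraries. Of 20 V-ATPase genes tested 10 were higher in macrophages and 3 lower, and of 34 autophagy genes 17 were higher and 1 lower, where 44.7% of all genes were called, 22.2% higher and 22.4% lower. The medians were 0.90 and 0.62, and -0.07 over all genes. Atp6v0d2 measured 0.899, 1.28, 0.344 and 0.411 CPM in tumor cells (log2 fold 6.21, SD 0.48, n = 4, edgeR adjusted p = 0.000215). Atp6v1a was 69.2, 80.5, 68.5 and 71.9 CPM (log2 fold 2.09, SD 0.16, edgeR adjusted p = 0.000611), and Lamp1 239, 250, 227 and 255 CPM (1.95, SD 0.13, edgeR adjusted p = 0.000443). Atp6v1a and Lamp1 in tumor cells were alike in both models, Atp6v0d2 was at 1.28 CPM or less, and all of them were below macrophages in each library.

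The autophagy genes called with the next folds were Atg2a (1.87, SD 0.15), Lamp2 (1.63, SD 0.60), Gabarap (1.56, SD 0.14) and Atg7 (1.54, SD 0.56), with edgeR adjusted p from 0.00077 to 0.0164. Mcoln1 (1.28, SD 0.39), Atg14 (1.28, SD 0.26), Tfeb (1.25, SD 0.59), Atg12 (1.20, SD 0.30) and Ulk1 (1.08, SD 0.24) were called too, with edgeR adjusted p from 0.00376 to 0.0462. The Tfeb call was lost without each library in turn (1.01 to 1.499) and the Ulk1 call without Lrrc25-/- B16F10 (1.11).

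Of the pump, Atp6v0d1 (1.72, SD 0.93), Atp6v1b2 (1.52, SD 0.70), Atp6v0e (1.32, SD 0.26) and Atp6v0b (1.23, SD 0.42) were called higher, with edgeR adjusted p from 0.0064 to 0.0349. The Atp6v0d1 call was lost without WT MC38 (1.39) or Lrrc25-/- MC38 (1.58), and that of Atp6v1b2 without Lrrc25-/- MC38 (1.41). Other subunits depended on the model. Atp6v0c was 1508 and 1522 CPM in melanoma cells and 225 and 291 CPM in MC38 cells, and Atp6v1f 729 and 697 CPM against 87.0 and 113 CPM. Atp6v0c was still called higher in macrophages (1.51, SD 0.86, edgeR adjusted p = 0.042), whereas Atp6v1f was not (0.56, SD 1.13, edgeR adjusted p = 0.444). Melanoma cells had more Atp6v1f than macrophages (459, 419, 219 and 256 CPM), and MC38 cells had less. The Atp6v0c call was lost without the WT B16F10 (1.80), WT MC38 (1.27) or Lrrc25-/- MC38 (1.28) library.

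Atp6v0e2 (chromosome 6, 48537615 to 48541801, plus strand), a paralog of the small e subunit, was found in melanoma cells at 73.9 and 65.8 CPM and in MC38 cells at 0 and 0.137 CPM. In macrophages it measured 2.88, 1.25, 0 and 0 CPM, beside summed melanoma markers of 422, 280, 1.89 and 2.28 CPM in those macrophages and 12285 and 15594 CPM in melanoma cells. It was called lower in macrophages, with a log2 fold of -5.03 and an SD of 2.60 (edgeR adjusted p = 0.00148). Atp6v1b1 (-3.62) and Atp6v0a4 (-2.86) were also called lower but reached at most 1.55 CPM in tumor cells. Wipi1 was the autophagy gene higher in tumor cells, at 13.6, 13.7, 37.9 and 44.7 CPM (log2 fold -1.03, SD 0.26, edgeR adjusted p = 0.00327), a call lost under a stricter gate (-0.82). Mitf (chromosome 6, 97807052 to 98021349, plus strand), the master factor of pigment cells, was 252 and 325 CPM in melanoma cells and 5.51 and 5.48 CPM in MC38 cells, on either side of its macrophage levels, and was not called (log2 fold 0.57, SD 3.70, edgeR adjusted p = 0.864). MC38 tumor cells also carried fibroblast markers at 466 and 450 CPM summed, against 1921 and 1936 CPM of their own list.

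Neutrophils shared the pump level of macrophages and differed in named autophagy genes. Of 17 V-ATPase genes 3 were higher in macrophages and 1 lower, and of 34 autophagy genes 4 were higher and 8 lower, where 39.7% of all genes were called, 27.3% higher and 12.4% lower. The medians were 0.29 and -0.22, and 0.69 over all genes. Optn (chromosome 2, 5020642 to 5064051, minus strand), a receptor that ties ubiquitin-tagged cargo to LC3, measured 65.8, 120, 315 and 335 CPM in neutrophils and 12.4, 15.2, 14.3 and 14.0 CPM in macrophages. The log2 fold was -3.59 (SD 1.08, n = 4, edgeR adjusted p = 6.66e-24), and the classes did not overlap.

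Atg2a, which moves lipid into the growing membrane, was 153, 77.2, 202 and 116 CPM in neutrophils and 11.6, 14.1, 28.9 and 36.3 CPM in macrophages (log2 fold -2.42, SD 0.82, edgeR adjusted p = 2.36e-12). Tfeb was 76.7, 51.5, 28.2 and 21.9 CPM in neutrophils (-1.45, SD 0.69, edgeR adjusted p = 0.00128), Atg7 was 54.8, 80.7, 131 and 147 CPM (-1.38, SD 0.40, edgeR adjusted p = 0.000147) and Map1lc3b 745, 721, 361 and 588 CPM (-1.003, SD 0.18, edgeR adjusted p = 0.00238). In each of these the neutrophils were the higher in every library. Lamp1 went the other way, at 153, 233, 239 and 178 CPM in neutrophils (log2 fold 2.11, SD 0.37, edgeR adjusted p = 2.27e-10).

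The neutrophil samples are thin, with 91241 to 582683 UMIs in all, and the fit found 7.14% of 2-fold changes in simulated counts. Atp6v0d2 was called higher in macrophages (1.21, SD 0.55, edgeR adjusted p = 0.0124) on 3, 15, 5 and 4 neutrophil UMIs, and the call was lost without the Lrrc25-/- B16F10 library (0.81) or without the Lrrc25-/- MC38 library (1.11), and under DESeq2 (0.89). The calls of Atg14 (2.22), Atg4a (2.09), Atg5 (0.99), Atg9a (-1.66) and Atg16l1 (-1.34) each include a library with 0 or 1 UMI in neutrophils. Atp6v1f (0.77), Atp6v0b (0.72), Atp6v1e1 (-0.70) and Atg16l2 (-1.24) were called with edgeR adjusted p from 0.0215 to 0.0444. The calls of Atp6v1f (0.50 to 0.84) and Atp6v0b (0.48 to 0.74) were lost without each library in turn, that of Atp6v1e1 without WT MC38 (-0.52) or Lrrc25-/- MC38 (-0.72), and that of Atg16l2 without either Lrrc25-/- library (-1.23 in both). The number of members called fell from 16 to 9 without the Lrrc25-/- B16F10 library. Without the Lrrc25-/- MC38 library it fell to 8, of which 7 were among the 16.

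Monocytes, which were not tested, stood near macrophages for the sum in MC38 (3108 and 3186 CPM) and below them in B16F10 (4179 and 3942 CPM). They had little Atp6v0d2 (3.77, 1.34, 0 and 3.16 CPM), and their Lamp1 was 493, 503, 462 and 493 CPM. Across these classes Atp6v0d2 therefore ran from macrophages to neutrophils (32.9, 25.7, 23.5 and 12.5 CPM). Levels of 7.02 CPM or less followed in monocytes, conventional dendritic cells, the whole T-cell gate and tumor cells. It reached 7.42 CPM in plasmacytoid dendritic cells (Lrrc25-/- MC38, 2 UMIs) and 7.26 CPM in CD4 T cells (WT B16F10, 6 UMIs).

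Macrophages were then divided by the UMIs of single genes. Arg1+ cells (435, 993, 3252 and 1653) had at least 2 UMIs of Arg1, the arginase of tissue-repair and hypoxic states, and none of Cxcl9. Cxcl9+ cells (150, 180, 597 and 1012) had at least 2 of Cxcl9, an interferon-induced chemokine, and none of Arg1, and Mrc1+ cells (1216, 956, 238 and 269) had at least 2 of the mannose receptor Mrc1 and none of either. Arg1+ against Cxcl9+ macrophages gave 5 of 16 V-ATPase genes higher and 0 lower, and 2 of 33 autophagy genes higher and 1 lower, where 11.3% of all genes were called, 6.45% higher and 4.87% lower. The medians were 0.18 and 0.10, and 0.02 over all genes.

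Atp6v0d2 (chromosome 4, 19876841 to 19922605, minus strand) had the highest fold of the members in that comparison. It measured 126, 101, 43.4 and 39.4 CPM in Arg1+ macrophages and 40.2, 52.3, 7.47 and 7.47 CPM in Cxcl9+ macrophages. The Arg1+ cells were the higher in each library, while the ranges over all libraries overlap. The log2 fold was 1.96 (SD 0.67, n = 4, edgeR adjusted p = 0.000727), and it was called without each library in turn (1.76 to 2.28).

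The other pump genes moved less. Atp6v1c1, a subunit of the reversible joint between V1 and V0, was 136, 150, 101 and 95.5 CPM in Arg1+ and 99.4, 106, 74.7 and 73.6 CPM in Cxcl9+ macrophages (log2 fold 0.61, edgeR adjusted p = 0.00599). Atp6v1e1 (0.50), Atp6v0e (0.41) and Atp6v1a (0.41) were higher with edgeR adjusted p of 0.0138, 0.0323 and 0.0293. Of the autophagy genes, Atg12, the ubiquitin-like partner of Atg5, was higher (0.71, edgeR adjusted p = 0.00559), as was Gabarap (0.36, edgeR adjusted p = 0.0405). Tfeb was lower in Arg1+ macrophages, at 10.99, 10.999, 7.32 and 9.41 CPM against 20.5, 20.8, 13.8 and 13.5 CPM (log2 fold -0.63, edgeR adjusted p = 0.0302).

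These smaller calls rest on all 4 libraries together. Leaving out 1 library left 3 calls (without WT B16F10), 4 (without WT MC38), 4 (without Lrrc25-/- MC38) or 5 (without Lrrc25-/- B16F10), and the calls of Tfeb, Gabarap and Atp6v0e were lost in each of these. The call of Atp6v1e1 was lost without WT B16F10 (0.48), and that of Atp6v1a was lost without WT B16F10, WT MC38 or Lrrc25-/- MC38 (0.36 to 0.40).

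Mrc1+ macrophages had 0 V-ATPase genes higher and 1 lower than Arg1+ macrophages, of 17, and 0 autophagy genes higher and 2 lower, of 34, where 8.5% of all genes were called, 2.82% higher and 5.69% lower. The gene lower among the pump genes was Atp6v0d2, at 50.04, 85.0, 12.4 and 24.8 CPM in Mrc1+ cells (log2 fold -1.11, SD 0.67, edgeR adjusted p = 0.00621). Its call was lost without the WT B16F10 library (-0.85). Atg101 (-0.67, edgeR adjusted p = 0.0327) and Atg13 (-0.63, edgeR adjusted p = 0.049), both of the ULK1 initiation complex, were the others. The Atg101 call was lost without each library in turn, and the Atg13 call without each but WT MC38. Without the WT B16F10 library 0 members were called, and without the Lrrc25-/- B16F10 library 1 was. In cycling macrophages, which express at least 3 of 8 mitotic markers, Atp6v0d2 was 27.0, 44.3, 9.999 and 8.38 CPM.

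**Figure D4:**
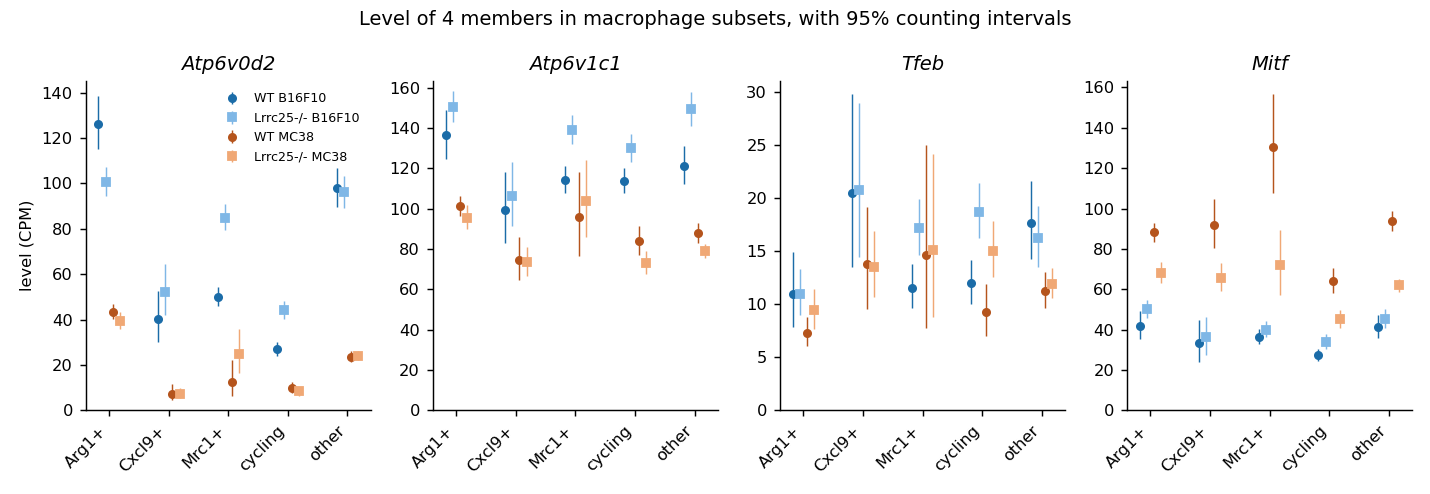
CPM of members in macrophage subsets, with 1 point per library. Atp6v0d2 is higher in Arg1+ macrophages (39.4 to 126 CPM) than in Cxcl9+ macrophages (7.47 to 52.3 CPM) within each library, and Tfeb is lower.

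Outside the members, the pathway lists gave a frame for these counts. Against T cells, where 27.7% of all genes were higher and 26.0% lower, 30 of 30 genes on a list of lysosomal hydrolases and other lysosomal proteins were higher in macrophages. The protease gene Lgmn (4.72) and the membrane glycoprotein gene Cd68 (4.49) led it. Also higher were 14 of 22 V-ATPase partners and lysosomal ion carriers with 1 lower (Slc11a1 3.98, Dmxl2 3.95). Of 33 other autophagy genes 13 were higher and 7 lower, and of 22 genes of mTORC1 and TFEB control 13 were higher and 3 lower (Tfec 4.41, Rragb -4.42). Against dendritic cells 12 of the 22 partners were higher and 2 lower, the latter Rogdi (-4.003) and Ncoa7 (-3.33). Against neutrophils 23 of the 30 lysosomal protein genes were higher and 2 lower. In Arg1+ against Cxcl9+ macrophages, where 6.45% of all genes were higher and 4.87% lower, 7 of those 30 were higher and 4 lower, led by the protease gene Ctsl (2.51). The partners Rogdi (-1.90) and Atp6ap2 (-0.49) were lower there and Tpcn2 (0.69) was higher, and 4 of the other autophagy genes were higher and 2 lower. The mitophagy receptors Bnip3 (2.14) and Bnip3l (1.37), known targets of hypoxia signalling, were among those that were higher. Bnip3 (-1.85) and Ctsl (-1.80) were lower in Mrc1+ than in Arg1+ macrophages.

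Promoters were searched for CACGTG, the E-box that Tfeb, Tfe3 and Mitf are known to bind. RefSeq's GRCm38.p6 table gave 58 promoters (250 bases before the start to 50 after it) for 47 of the 57 members. Atg12, Atg16l1, Atp6v0a2, Atp6v0d2, Atp6v1b2, Atp6v1c1, Atp6v1g1, Atp6v1h, Becn1 and Map1lc3a are not among them. CACGTG reads the same on both strands. It stood in 10 member promoters (17.2%), with 4 of 20 V-ATPase and 6 of 38 autophagy promoters, and in 7.15% of all 32851. TCACGTGA, which contains it and is also its own reverse complement, stood in 5 (8.62%) and in 0.974% of all. The windows below come from members that were higher in macrophages, written 5′ to 3′ on the gene's strand with CACGTG in capitals.

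Lamp1, chr8:13159088-13159117, plus strand: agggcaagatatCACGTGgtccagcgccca
Lamp1, chr8:13159121-13159150, plus strand: gatgccgactggCACGTGaccacatcacgt
Atp6v1a, chr16:44139373-44139402, minus strand: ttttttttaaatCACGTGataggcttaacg
Atp6v0d1, chr8:105566050-105566079, minus strand: ccctactgcggtCACGTGagacgcggtgcg
Atp6v0b, chr4:117887348-117887377, minus strand: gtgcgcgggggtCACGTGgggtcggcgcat
Mcoln1, chr8:3500462-3500491, plus strand: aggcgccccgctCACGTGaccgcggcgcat

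Lamp1 held 4 matches, more than the others printed here. Of the 10 members with CACGTG, 9 were called higher in macrophages than in T cells, against 11 of 31 tested members with a promoter and no match. The counts were 7 of 10 and 11 of 31 against dendritic cells, 9 of 10 and 12 of 34 against tumor cells, and 4 of 10 and 2 of 31 against neutrophils. Over all tested genes with a promoter, 35.1% of those with CACGTG and 28.1% of those without were higher in macrophages than in T cells. The shares were 26.9% and 20.7% against dendritic cells, 24.2% and 22.6% against tumor cells, and 31.4% and 28.5% against neutrophils. These are counts of letters in a window, with no test, and no binding was measured.

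Between WT and Lrrc25-/- hosts 0 members were called in any class tested. Over the 4 libraries, with tumor model as a term, 0 of 51 members were called in macrophages, where 0.0133% of all genes were. The counts were 0 of 40 in conventional dendritic cells (0.0959% of all genes), 0 of 30 in neutrophils (0.278%), 0 of 47 in T cells (0.0696%) and 0 of 53 in tumor cells (0.656%). DESeq2 gave 0 as well in each class. At an unadjusted edgeR p under 0.05 there was 1 member in macrophages (Atp6v0e2), 1 in dendritic cells (Atg12), 1 in neutrophils (Map1lc3a), 3 in T cells (Atg2a, Ulk1, Atp6v0d2) and 0 in tumor cells, where 3.28%, 4.17%, 5.4%, 5.39% and 4.97% of all genes were. Only 1 residual degree of freedom remains in that fit, where opposite differences in the models enter as error. In simulated counts it found from 2.86% (neutrophils) to 70% (tumor cells) of 2-fold changes.

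Within a model there is 1 library per genotype, so no test was made. A gene counted as different when it had 20 CPM in either library, 50 UMIs in both together and a 1.5-fold difference after a pseudocount of 1. Intervals are 95% and exact, and cover counting error only. In macrophages 0 of 31 measured members passed in B16F10, where 4.17% of all genes did, and 0 of 35 in MC38, where 3.24% did. The median log2 ratio of Lrrc25-/- over WT was 0.04 in B16F10 and 0.00 in MC38. Of the 30 members measured in both models, 21 (70%) had opposite signs in B16F10 and MC38, as had 58.2% of the 4195 genes measured in both. Their log2 ratios ran from -0.22 to 0.42 in B16F10 and from -0.51 to 0.39 in MC38, inside the threshold of 0.585.

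For the most abundant member, the ratio of Atp6v0c was 0.887 (0.878 to 0.896) in B16F10, where the Lrrc25-/- pool was the lower. Its ratio was 1.27 (1.26 to 1.29) in MC38, where that pool was the higher. Lamp1 was 1.05 (1.03 to 1.06) and 1.07 (1.05 to 1.09), higher by a little in both. Nearest to the threshold was Mitf, at 0.698 (0.665 to 0.732) in MC38 and 1.20 in B16F10. Atp6v0d2 was 1.35 (1.27 to 1.43) in B16F10 and 0.818 (0.753 to 0.888) in MC38. The share of macrophages in the Arg1+ subset, where Atp6v0d2 was highest in each library, moved the same way, from 435 of 3591 to 993 of 4057 cells in B16F10 and from 3252 of 8748 to 1653 of 8629 cells in MC38. Within MC38 subsets the WT and Lrrc25-/- levels were 43.4 and 39.4 CPM (Arg1+), 7.47 and 7.47 CPM (Cxcl9+), 12.4 and 24.8 CPM (Mrc1+) and 23.7 and 24.1 CPM (outside the named subsets). The part of the subset mix in the pooled ratio was not tested.

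**Figure D5:**
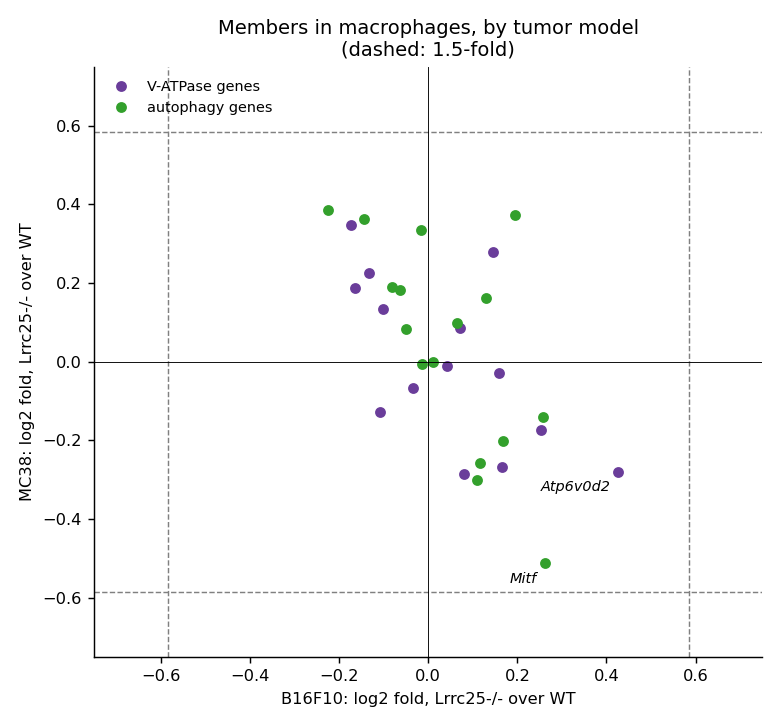
Log2 ratio of Lrrc25-/- over WT in macrophages for the members measured in both models, B16F10 on the horizontal axis and MC38 on the vertical axis. Dashed lines stand at the 1.5-fold threshold. The 30 points lie between -0.51 and 0.42, and 21 of them have opposite signs in the models.

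Within macrophage subsets 7 members passed the rule. In Mrc1+ macrophages of B16F10, 1 of 30 measured members passed (background 4.52%), namely Atp6v0d2 with 50.04 CPM in WT and 85.0 CPM in Lrrc25-/- (ratio 1.70, 1.52 to 1.90). In cycling macrophages of B16F10, 1 of 31 passed (background 3.82%), again Atp6v0d2, with 27.0 and 44.3 CPM (1.64, 1.42 to 1.90). In Arg1+ macrophages of B16F10, 1 of 31 passed (background 7.88%), which was Tfe3 with 12.9 and 20.8 CPM (1.61, 1.17 to 2.27), whereas Atp6v0d2 was 126 and 101 CPM there. So Atp6v0d2 was higher in the Lrrc25-/- pool in some B16F10 subsets and lower in another.

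In MC38, 4 of 33 members passed in Mrc1+ macrophages (background 13.5%). Mitf was lower, at 131 CPM in WT and 71.8 CPM in Lrrc25-/- (0.550, 0.409 to 0.737), and Map1lc3b was higher, at 135 and 229 CPM (1.69, 1.36 to 2.12), with Atg2a (1.93, 1.09 to 3.54) and Map1lc3a (1.58, 0.924 to 2.76). In MC38 macrophages outside the named subsets 1 of 35 passed (background 3.76%), Mitf at 93.6 and 62.0 CPM (0.662, 0.616 to 0.712). Mitf was lower in the Lrrc25-/- pool of MC38 in Arg1+ (88.3 and 68.2 CPM) and Cxcl9+ (92.0 and 65.8 CPM) macrophages as well, short of the size rule. In Cxcl9+ macrophages 1 of 30 passed in B16F10 (background 12%), Atg5 at 44.8 and 27.9 CPM (0.624, 0.416 to 0.931). In the other subsets 0 members passed, of 35 in Arg1+ (background 3.54%), 34 in Cxcl9+ (7.46%) and 35 in cycling (3.51%) macrophages of MC38, and of 31 in macrophages outside the named subsets of B16F10 (3.68%).

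In T cells Atg2a was higher in the Lrrc25-/- pool of both models. It was 16.003 and 26.2 CPM in B16F10 (1.63, 1.24 to 2.18), the 1 member of 28 to pass (background 16%), and 23.1 and 41.0 CPM in MC38 (1.78, 1.40 to 2.27). Over the 4 libraries its log2 fold was 0.73, with an unadjusted edgeR p of 0.00735 and an adjusted p of 0.741. In MC38, 3 of 36 members passed (background 8.59%). The others were Ulk1, the initiating kinase, at 11.8 and 20.7 CPM (1.76, 1.26 to 2.49) and Optn at 26.6 and 14.1 CPM (0.531, 0.400 to 0.705). The CD8 cells among them had 2 of 35 members past the rule in MC38 (background 8.71%), Atg2a at 17.9 and 34.05 CPM (1.90, 1.40 to 2.62) and Optn at 24.3 and 10.3 CPM (0.424, 0.290 to 0.615). In B16F10 they had 1 of 29 (background 18%), the conjugation scaffold gene Atg16l1 at 12.8 and 20.6 CPM (1.61, 1.02 to 2.61).

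Conventional dendritic cells had 1 of 26 members past the rule in B16F10 (background 16.6%), Atg12 at 37.8 and 17.9 CPM (0.474, 0.290 to 0.780), and 0 of 29 in MC38 (background 11%). Tumor cells had 0 of 29 in B16F10 (background 2.83%) and 1 of 28 in MC38 (background 2.57%), Atp6v0d1 at 20.8 and 34.8 CPM (1.67, 1.34 to 2.09). In monocytes 6 of 31 passed in B16F10 (background 17.1%) and 4 of 31 in MC38 (background 15.6%). The a-subunit gene Atp6v0a1 was lower in the Lrrc25-/- pool of both, at 47.8 and 21.0 CPM (0.440, 0.281 to 0.694) and at 55.5 and 26.8 CPM (0.483, 0.292 to 0.802), on 34 to 47 UMIs per library. In B16F10 monocytes Atg4d (2.13, 1.001 to 5.23) and Atp6v1h (1.55, 1.003 to 2.47) were higher and Atg4b (0.603, 0.351 to 1.06) was lower, and in MC38 Map1lc3a (2.003, 1.10 to 3.89) was higher. In neutrophils, whose UMI totals are the lowest of the classes tested over the 4 libraries, 5 of 21 passed in B16F10 (background 36.6%). In MC38, 7 of 20 did (background 34.8%). Among them were Map1lc3a, at 175 and 63.5 CPM in B16F10 (0.362, 0.196 to 0.697), and Atp6v1c1, at 164 and 56.3 CPM in MC38 (0.343, 0.183 to 0.622). Atg2a was lower in both models (0.503, 0.271 to 0.993, and 0.573, 0.359 to 0.911), and in MC38 Atp6v1a (0.517, 0.369 to 0.722) was lower and Atp6v1f (1.94, 1.16 to 3.35) higher. The share of members that passed was under the share of all genes in macrophages, T cells and conventional dendritic cells of both models. The same held in neutrophils and tumor cells of B16F10 and in monocytes of MC38. It was at or over that share in monocytes of B16F10 and in neutrophils and tumor cells of MC38.

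Smaller classes gave few more. Migratory dendritic cells, also counted in the conventional class above, had 2 of 20 members past the rule in B16F10 (background 21.5%). These were Atp6v0b (1.55, 1.22 to 1.99) and Gabarapl2 (0.644, 0.444 to 0.942). In MC38 they had 3 of 17 (background 15.1%), all higher, namely Atp6v0c (1.53, 1.17 to 2.01), Map1lc3b (1.61, 1.02 to 2.61) and Gabarap (1.57, 1.25 to 1.99). Plasmacytoid dendritic cells of B16F10 had 3 of 18 (background 20.5%), Lamp2 (1.72, 1.15 to 2.62), Atp6v1h (1.55, 1.04 to 2.33) and Map1lc3a (0.584, 0.350 to 0.964). These rest on 29 to 77 UMIs per library in the plasmacytoid gate.

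CD4 T cells had 5 of 21 members past the rule in MC38 (background 15.9%) and 0 of 22 in B16F10 (background 25.5%). Lamp1 (1.88, 1.03 to 3.65), Atp6v0d1 (1.73, 0.983 to 3.21), Atp6v0b (1.71, 0.987 to 3.11) and Atg16l2 (1.71, 1.03 to 2.95) were higher and Atp6v1d (0.600, 0.396 to 0.915) was lower. Natural killer cells had 2 of 21 in MC38 (background 17.9%), Map1lc3b (1.59, 1.13 to 2.26) and Atg4a (1.56, 0.824 to 3.11), and 0 of 9 in B16F10 (background 23.4%). Fibroblasts had Atg4b lower in B16F10 (0.585, 0.342 to 0.994), 1 of 25 (background 14.7%), and Atg101 higher in MC38 (1.90, 1.18 to 3.10), 1 of 33 (background 10.1%).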

How the data were processed

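The authors deposited counts, whole-number UMIs per gene and barcode with no normalization, per the file headers and values. Reads were mapped to mm10, as the submitters' processing notes list. For the aligner, the counter and the use of strand, the entry is: not given in the sources used here. Thus reads of overlapping genes cannot be told apart. Barcodes with at least 500 UMIs, 300 genes and at most 20% mitochondrial UMIs were kept, and the top Scrublet scores were removed at 0.5% per 1000 cells (scanpy 1.11.5). A cell took the class of its highest marker score (at least 0.2, 3 markers detected and 0.1 above the next of 14 lists). UMIs were summed per library and class, and tested with edgeR 4.0.16 (R 4.3.3, TMM, filterByExpr), with DESeq2 1.42.0 as an alternative. The tests were checked on simulated data. Of 2-fold changes, the genotype fits found 50% in macrophages, 37.1% in conventional dendritic cells and 2.86% in neutrophils. They found 52.9% in T cells and 70% in tumor cells. Macrophage fits found 1.43% against tumor cells, 7.14% against neutrophils, 42.9% against T cells and 50% against dendritic cells. The subset fits found 84.3% (Arg1+ against Cxcl9+) and 61.4% (Mrc1+ against Arg1+). A gene not called may thus still differ 2-fold. Genes were named by rule: up to 10 V-ATPase and 10 autophagy genes called per comparison by absolute fold, those past the size rule (up to 5 per class outside macrophages by absolute fold, and more in monocytes and neutrophils), the paralog families, and Tfeb, Tfe3 and Mitf. The members and lists were chosen with earlier results of these data known. Positions are from GENCODE M21 on GRCm38.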

Additional observations from a re-analysis of the deposited data

Results flagged for a closer look

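In monocytes 2 autophagy genes passed the size rule in opposite directions in the tumor models. Atg7 had a log2 ratio of Lrrc25-/- over WT of 0.59 in B16F10 (24 and 103 UMIs, ratio interval 0.972 to 2.49) and of -1.003 in MC38 (51 and 52 UMIs). Atg101, a part of the ULK1 complex, had -1.04 in B16F10 (36 and 48 UMIs) and 1.49 in MC38 (7 and 43 UMIs). Of all 3776 genes measured in both models 74 (1.96%) passed in opposite directions, as did 2 of 29 members (6.9%), where 17.1% of all genes passed in B16F10 and 15.6% in MC38. The WT B16F10 monocyte gate held the mast-cell transcripts Mcpt4 and Tpsb2 among its leading genes. Each value comes from 1 library per genotype, and the difference between the models was not tested.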

How the results depend on the processing

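Alternatives were DESeq2's test, DESeq2 size factors, no filter on low counts, a stricter mitochondrial limit, no doublet removal, a stricter gate, leaving out each library, and for the size rule other floors, pseudocounts and means. No called member changed direction under any of these. With no replicate block the members called fell from 24 to 10 against dendritic cells, from 31 to 12 against tumor cells, from 16 to 7 against neutrophils, from 8 to 0 for Arg1+ against Cxcl9+ and from 3 to 0 for Mrc1+ against Arg1+. Of the 29 members called against T cells, 22 stayed called with no block. Leaving out 1 library gave 8 to 15 against neutrophils, 3 to 5 for Arg1+ against Cxcl9+ and 0 to 2 for Mrc1+ against Arg1+. The neutrophil counts include new calls, and 7 to 13 of the 16 called there stayed called. Within B16F10 macrophages, with no CPM floor, 1 member was lower (Atp6v0e2, 2.88 and 1.25 CPM). In MC38 macrophages, with the mean of per-cell CPM, 1 was lower (Mitf). The cause was not tested. Of the called members, DESeq2 lost 6 of 16 against neutrophils, and the stricter gate kept 22 of 31 against tumor cells. Of the 3 Mrc1+ against Arg1+ calls, 1 (Atg13) was lost under DESeq2, its size factors, the mitochondrial limit, no doublet removal and the stricter gate. The genotype fit sets Lrrc25-/- against WT within each model through its model term, and leaving out a library leaves it no residual degrees of freedom. Depth limits neutrophils, natural killer cells, CD4 T cells, monocytes and the dendritic classes most.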

Other observations

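Among the macrophages outside the named subsets, Atp6v0d2 measured 97.9, 96.1, 23.7 and 24.1 CPM in the order WT B16F10, Lrrc25-/- B16F10, WT MC38 and Lrrc25-/- MC38. Lamp2 ran opposite to the V-ATPase sum between the models. It was higher in both MC38 libraries than in both B16F10 libraries in macrophages (201, 218, 299 and 250 CPM) and in neutrophils (208, 271, 498 and 713 CPM). Atg9b, the minor paralog of the scramblase gene Atg9a, reached 12.1 and 10.5 CPM in MC38 tumor cells and stayed at or under 3.54 CPM in macrophages, melanoma cells and the whole conventional dendritic and T-cell gates. Plasmacytoid dendritic cells had a V-ATPase sum of 3020, 3243, 1708 and 2093 CPM.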
